A study of Sus scrofa with 64 samples.

Results

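The comparison described here is the difference between 2 fasting responses of the piglet jejunum: the change with fasting at 6 weeks of age minus the change with fasting at 4 weeks. It used all 64 libraries of the series, 1 per female piglet, in 4 groups of 16, and attention is given to the 1606 of 14062 tested genes (11.4%) that changed in opposite directions at the 2 ages. The animals were TN20 crosses of Large White and Norwegian Landrace, and the tissue was mucosa scraped from the middle of the jejunum. Fed 4-week piglets were sampled while still suckling the sow on the farm, without creep feed, and fasted 4-week piglets had been held for 48 h in a separate pen on the same farm. The 6-week piglets had left the sow and the farm at 4 weeks, were housed in pairs at a research facility and ate a standard weaning diet for 2 weeks. They were then either fed or fasted for 48 h. Water was freely available in all 4 groups. Age, weaning, diet, site and housing therefore changed together between the 2 stages and cannot be told apart, and fasting at 4 weeks was also separation from the sow.

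Fasting lowers insulin and releases fatty acids from fat stores. In many tissues the fatty acids activate PPARA, a nuclear receptor that switches on genes for fat oxidation, while low insulin frees FOXO transcription factors, which raise genes such as those of the insulin receptor and of autophagy. In the other direction, feeding sustains growth in the intestinal lining: crypt cells divide, ribosomes are assembled, and amino acid, sterol and protein folding pathways run. The suckling jejunum takes up a milk rich in fat, so its epithelium already carries much of the machinery for fat absorption and oxidation while fed.

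Enterocyte markers were high in every library: VIL1, a structural protein of microvilli, lay at 1035 to 4536 CPM and FABP2, an intestinal fatty acid carrier, at 814 to 14270 CPM. CPM are counts scaled to a common library size with trimmed-mean (TMM) factors. CKM, the muscle creatine kinase, lay at 0.0467 to 1.93 CPM, although the extraction text of the labels speaks of muscle. Library totals were 18774144 to 21159989 counts. On the first principal component of the log2 CPM values, with 30.6% of the variance, the 16 suckling fed pigs lay apart from the rest, and fasted 4-week pigs were the most spread. Bulk RNA cannot tell fewer cells of a type from less RNA per cell.

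The fasting responses differed between the ages at 7556 genes (53.7% of those tested), with the response at 6 weeks the higher at 3817 (27.1%) and the lower at 3739 (26.6%). Each gene's response was a log2 fold change of fasted over fed, tested with edgeR's quasi-likelihood method and called at a Benjamini-Hochberg adjusted p under 0.05. With scaling by library size alone the difference was positive at 2213 and negative at 5515 genes, and the median gene moved by 0.25 at 4 weeks, so directions are relative to the typical gene. Of the 7556, 3877 changed at 4 weeks only (51.3%), 1301 at 6 weeks only (17.2%), 574 at both ages in the same direction (7.6%), 198 at neither age (2.62%), and 1606 at both ages in opposite directions (21.3%). All 1606 opposite genes were also called for the difference itself.

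Across all genes, 63.4% were called at 4 weeks and 41.1% at 6 weeks. The comparisons at the 2 ages share no library. Of the 3724 genes called at both, 1120 rose at both ages, 998 fell at both ages, and 43.1% were opposite. Over all 14062 genes the 2 log2 responses had a Pearson correlation of 0.035, a description across genes, which are not independent replicates. The opposite genes divide into 746 that fell at 4 and rose at 6 weeks (5.31% of genes tested) and 860 that rose at 4 and fell at 6 weeks (6.12%). At both ages at least 1.5-fold were 138 and 269 of them, and at least 2-fold 23 and 68. No gene had fed and fasted pigs that did not overlap at both ages in opposite directions, while 653 genes (4.64%) were free of overlap at 4 weeks and 52 (0.37%) at 6 weeks. The line was drawn by adjusted p: PWP2, a ribosome assembly factor, lay just inside with 0.88 at 4 weeks and -0.32 at 6 weeks (adjusted p = 0.0499). TRIM21, an interferon-induced antibody receptor, lay just outside with 2.21 and -0.42 (adjusted p = 0.05).

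**Figure D1:**
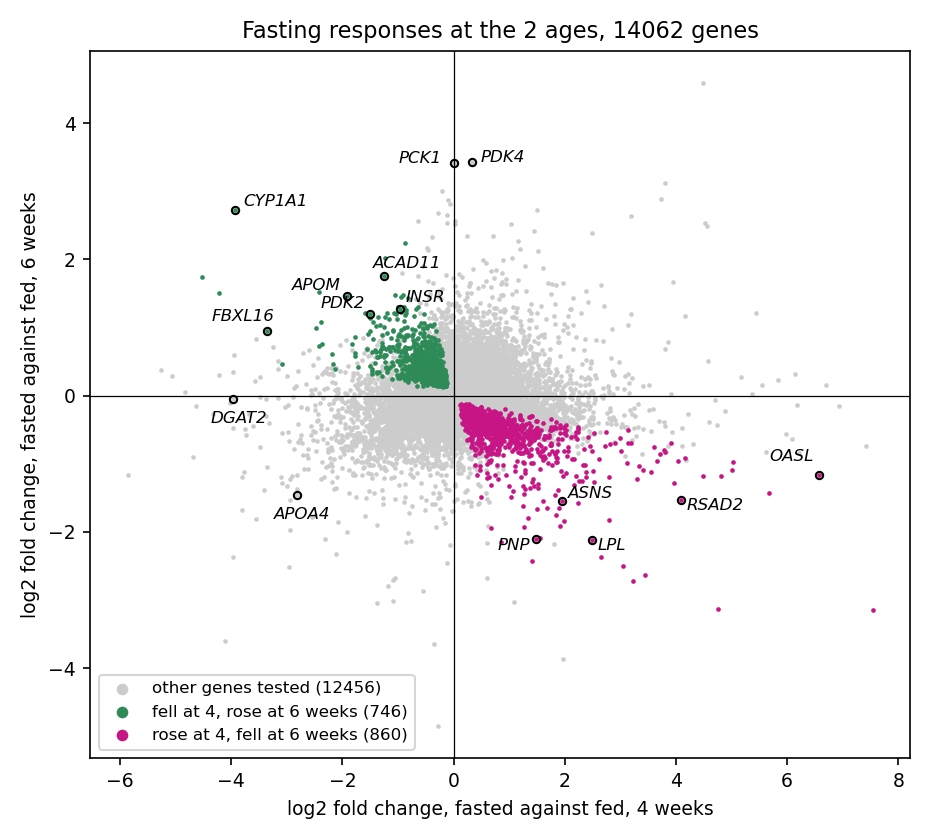
Log2 fold change of fasted over fed piglets at 4 weeks (x axis) against that at 6 weeks (y axis), one dot per gene tested, with the 746 genes that fell and then rose in green, the 860 that rose and then fell in magenta and other genes in grey. The cloud has no slope (r = 0.035), LPL and ASNS lie far out at lower right, ACAD11 and PDK2 at upper left, and PCK1 and PDK4 near 0 at 4 weeks and above 3 at 6 weeks.

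The fed groups moved more between the ages than the fasted groups did at the opposite genes. Among the 746 that fell at 4 and rose at 6 weeks, the median log2 change was -0.48 at 4 weeks and 0.40 at 6 weeks. Fed 6-week piglets were below fed 4-week piglets by a median of -0.69, and fasted 6-week piglets were above fasted 4-week piglets by 0.17. Fed suckling piglets held the highest of the 4 group medians at 606 of these genes. For the 860 that rose and then fell the picture was turned over, with a median of 0.73 at 4 weeks and -0.49 at 6 weeks, fed 6-week above fed 4-week piglets by 0.82 and fasted 6-week below fasted 4-week piglets by -0.39. Fed suckling piglets were lowest at 677 of them. By the same test 692 of the 746 were lower in fed 6-week than fed 4-week piglets, against 32.3% of all genes, and 404 were not called between the fasted groups. Fasted 6-week piglets were higher than fasted 4-week piglets at 290 of the 746, against 19.7% of all genes, where 42.9% were called in either direction. Of the 860, 778 were higher in fed 6-week piglets, against 31.9% of all genes, and 512 were lower in fasted 6-week piglets, against 23.2%. These values share their libraries with the choice of genes and serve as a description only. The opposite genes were also more abundant than usual, with a median mean level of 34.8 CPM in the first set and 21.7 CPM in the second, against 15.7 CPM over all genes tested.

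**Figure D2:**
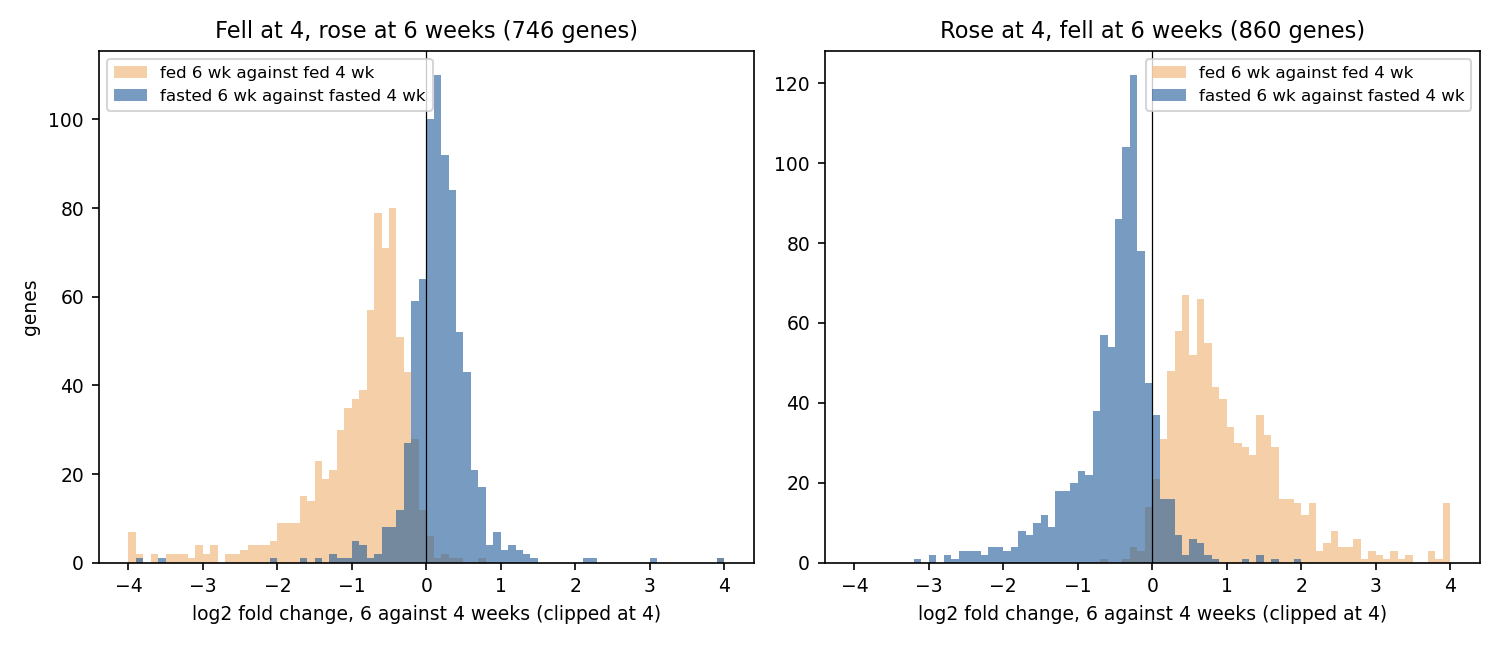
Histograms of the log2 fold change of 6-week over 4-week piglets, fed (orange) and fasted (blue), for the 746 genes that fell and then rose (left) and the 860 that rose and then fell (right); values beyond 4 are drawn at 4. The fed distributions lie away from 0, with medians of -0.69 and 0.82, and the fasted ones nearer to it, with medians of 0.17 and -0.39.

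Fat oxidation genes fell at 4 weeks more often than they rose, and some of them rose at 6 weeks. The list of PPARA fasting targets had 5 of 19 measured members that fell at 4 and rose at 6 weeks (against 5.31% of all genes) and 1 that did the reverse (against 6.12%). At 4 weeks 5 rose (against 33.9% of all genes) and 8 fell (against 29.4%), with a median of -0.24, and at 6 weeks 11 rose (against 22.7%) and 2 fell (against 18.4%), with a median of 0.49. Of 20 genes for mitochondrial fat oxidation and ketogenesis, 2 rose and 13 fell (against 29.4%) at 4 weeks. At 6 weeks 7 rose (against 22.7%) and 2 fell, and 5 fell and then rose (against 5.31%). Of 19 peroxisomal ones, 0 rose and 15 fell at 4 weeks. At 6 weeks 5 rose, a share near the 22.7% of all genes, and 2 fell. The medians were -0.93 and 0.19, and 3 fell and then rose, against 5.31% of all genes. With library size scaling 1 peroxisomal gene was opposite, and with covariates for the levels of smooth muscle and B cell markers 1 peroxisomal gene and 4 PPARA targets were. Library size scaling also moved the median at 4 weeks to -0.009 for PPARA targets and to -0.16, from -0.40, for mitochondrial genes, and the median difference of PPARA targets from 0.46 to 0.16. For the difference, 14 of the 20 mitochondrial and 17 of the 19 peroxisomal genes had the higher response at 6 weeks, against 27.1% of all genes. Summed markers of absorptive enterocytes had medians of 112700 CPM in fed and 69600 CPM in fasted 4-week piglets and 60430 CPM in fed and 73180 CPM in fasted 6-week piglets, and their part in these results was not tested.

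ACAD11, an acyl-CoA dehydrogenase that opens the oxidation of long-chain fatty acids (ENSSSCG00000011629, chromosome 13, 73733508 to 73831496 of Sscrofa11.1), had a median of 212 CPM (138 to 321) in fed and 91.2 CPM (13.8 to 177) in fasted 4-week piglets, and of 40.1 CPM (19.1 to 94.3) in fed and 154 CPM (82.2 to 205) in fasted 6-week piglets. Suckling piglets were highest, fed weaned piglets lowest, and each fasted group lay between them, with ranges that overlapped at both ages. All 16 fasted pigs were beyond the fed median at each age, below it at 4 weeks and above it at 6 weeks. The response of ACAD11 was -1.25 (SE 0.20) on the log2 scale at 4 weeks and 1.75 (SE 0.20) at 6 weeks, and the responses differed by 3.00 (SE 0.28, adjusted p = 7e-14). The span of ACAD11 holds ACKR4, so reads there could be shared, since the strand setting of the counting is not given in the sources used here.

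PDK2, a kinase that shuts the pyruvate dehydrogenase complex and so spares glucose (ENSSSCG00000027198, chromosome 12, 26274562 to 26295787), ranged over 19.5 to 51.9 CPM in fed 4-week piglets (median 36.7), 6.18 to 33.0 CPM in fasted 4-week piglets (median 11.4), 4.98 to 9.48 CPM in fed 6-week piglets (median 7.28) and 7.79 to 22.0 CPM in fasted 6-week piglets (median 16.8). The order of the groups was the same as for ACAD11, and again all 16 fasted pigs passed the fed median in each direction. Fasted PDK2 levels differed from fed ones by a log2 fold change of -1.50 (SE 0.16) at 4 weeks and 1.19 (SE 0.16) at 6 weeks, which lie 2.69 apart (SE 0.23, adjusted p = 6.5e-15). The related PDK4, named whatever its result, was not called at 4 weeks, with group medians of 82.7 CPM (fed) and 92.9 CPM (fasted) at 4 weeks and 6.66 CPM (fed) and 66.8 CPM (fasted) at 6 weeks. Its log2 change was 0.33 at 4 weeks (SE 0.22, adjusted p = 0.17) and 3.43 at 6 weeks (SE 0.24, adjusted p = 1.5e-17), and at 6 weeks the fed and fasted ranges did not touch. Its difference of 3.09 (SE 0.32, adjusted p = 1.9e-12) came without a call at 4 weeks.

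ACOT12, a cytosolic thioesterase for acetyl-CoA, had a median of 112 CPM (59.8 to 141) in fed and 40.0 CPM (4.15 to 109.5) in fasted 4-week piglets, and of 28.7 CPM (5.69 to 54.8) in fed and 59.7 CPM (28.4 to 129) in fasted 6-week piglets. The lowest fasted 4-week pigs lay below every fed 4-week pig, and the ranges overlapped at both ages. Between the ages ACOT12 differed in its log2 response by 2.29 (SE 0.34, adjusted p = 8.5e-08), from -1.17 (SE 0.24) at 4 weeks to 1.12 (SE 0.24) at 6 weeks. ACAA2, the thiolase of the last step of mitochondrial beta-oxidation, lay at 60.9 to 166 CPM in fed 4-week piglets (median 91.9), 15.2 to 85.1 CPM in fasted 4-week piglets (median 32.4), 24.0 to 39.1 CPM in fed 6-week piglets (median 30.3) and 29.9 to 91.1 CPM in fasted 6-week piglets (median 57.6). It fell in all 16 fasted 4-week pigs relative to the fed median and stood above that median in 15 of 16 at 6 weeks. As log2 fold changes, ACAA2 gave -1.29 (SE 0.17) at 4 weeks and 0.90 (SE 0.17) at 6 weeks, with 2.18 between them (SE 0.23, adjusted p = 8.4e-12). EHHADH, a bifunctional enzyme of peroxisomal beta-oxidation, had a median of 401 CPM (288 to 523) in fed and 198 CPM (48.5 to 275) in fasted 4-week piglets, and of 179 CPM (128 to 273) in fed and 251 CPM (177 to 324) in fasted 6-week piglets. The 4-week groups did not overlap. In log2 units EHHADH moved by -1.09 (SE 0.13) at 4 weeks and by 0.44 (SE 0.13) at 6 weeks, a difference of 1.53 (SE 0.18, adjusted p = 3.1e-10), and the call at 6 weeks was lost once the mean log2 levels of smooth muscle and of B cell markers were covariates (0.32, adjusted p = 0.061).

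RETSAT, an enzyme that saturates retinol and is a PPAR target in mice, showed group medians of 1094 CPM (fed) and 260.2 CPM (fasted) at 4 weeks and 172 CPM (fed) and 229 CPM (fasted) at 6 weeks, with no overlap at 4 weeks. Its log2 change was -2.17 at 4 weeks (SE 0.17, adjusted p = 6.7e-18) and 0.47 at 6 weeks (SE 0.16, adjusted p = 0.014), and the latter was 0.39 (adjusted p = 0.061) with those covariates. ETFDH, which passes electrons from fatty acid oxidation to the respiratory chain, changed by -0.71 at 4 weeks (SE 0.08, adjusted p = 2e-11) and 0.24 at 6 weeks (SE 0.08, adjusted p = 0.014), with a difference of 0.95 (SE 0.12, adjusted p = 2.7e-10), and without a filter on low counts its rise at 6 weeks was not called (0.21, adjusted p = 0.063). CROT, which makes carnitine esters of medium-chain fatty acids for export from peroxisomes, changed by -0.26 at 4 weeks (SE 0.10, adjusted p = 0.025) and 0.75 at 6 weeks (SE 0.10, adjusted p = 7.2e-08). That fall at 4 weeks was not called with library size scaling (-0.08, adjusted p = 0.51) or without fed 4-week pig 9 (adjusted p = 0.054). The other opposite members were VNN1, DECR1, SLC25A20, ACADL and ACOX3, which changed by -0.88, -0.84, -0.53, -0.58 and -0.20 at 4 weeks and by 0.99, 0.37, 0.60, 0.61 and 0.24 at 6 weeks. PPARGC1A, a coactivator of PPARA and of mitochondrial genes, went against its list, at 0.47 and then -1.09.

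CPT1A, which controls fatty acid entry into mitochondria, and PCK1, the first committed enzyme of gluconeogenesis, are standard fasting markers. CPT1A had group medians of 278 CPM (fed) and 288 CPM (fasted) at 4 weeks and 63.3 CPM (fed) and 128 CPM (fasted) at 6 weeks. Its log2 change was -0.24 at 4 weeks (SE 0.14, adjusted p = 0.12) and 0.88 at 6 weeks (SE 0.14, adjusted p = 8.7e-07), a difference of 1.12 (SE 0.20, adjusted p = 2.1e-06). PCK1 lay at 369 to 1799 CPM in fed 4-week piglets (median 729.9), 23.3 to 2638 CPM in fasted 4-week piglets (median 718), 40.9 to 639 CPM in fed 6-week piglets (median 115) and 452 to 3111 CPM in fasted 6-week piglets (median 1843). Fasted 4-week pigs spread around the fed level, whereas all 16 fasted 6-week pigs were above the fed 6-week median. For PCK1 the log2 fold change was 0.01 (SE 0.35) at 4 weeks and 3.42 (SE 0.38) at 6 weeks, a difference of 3.41 (SE 0.51, adjusted p = 7.6e-08). For both genes the rise at 6 weeks was called and no change was called at 4 weeks, and the fed level had been lower at 6 than at 4 weeks.

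**Figure D3:**
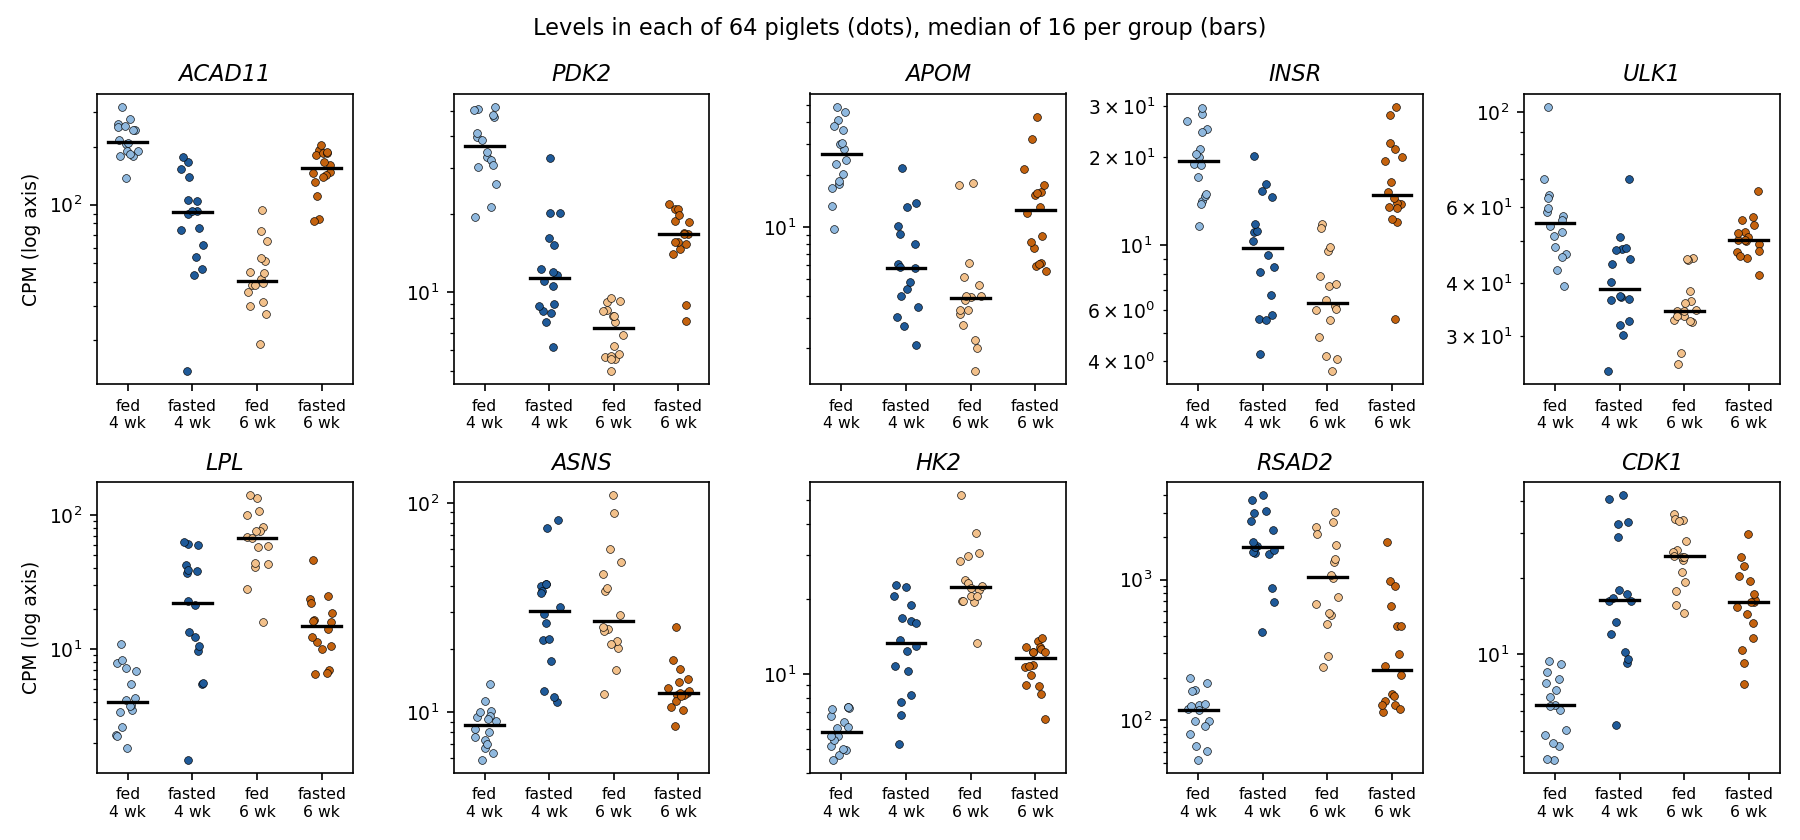
CPM (log axis) of 10 opposite genes in each of 64 piglets, with a bar at the median of the 16 pigs of a group. In the upper row (ACAD11, PDK2, APOM, INSR and ULK1) fed 4-week pigs are highest and fed 6-week pigs lowest by median, and in the lower row (LPL, ASNS, HK2, RSAD2 and CDK1) the lowest median is that of fed 4-week pigs.

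Autophagy genes fell at 4 weeks and rose at 6 weeks more often than the reverse. Of 36 measured autophagy and lysosome genes, 5 rose (against 33.9% of all genes) and 18 fell (against 29.4%) at 4 weeks (median -0.14). At 6 weeks 19 rose (against 22.7%) and 5 fell (against 18.4%), with a median of 0.25. The response was higher at 6 weeks for 22 (against 27.1% of all genes) and lower for 2 (against 26.6%), and 8 fell and then rose (against 5.31%): ULK1, ULK2, ATG9A, WIPI1, MAP1LC3B, GABARAPL2, NBR1 and LAMP1. With library size scaling the median at 4 weeks was 0.09, a change of sign, and 4 were opposite. With the smooth muscle and B cell marker covariates 5 were opposite, and the median at 6 weeks was 0.12. Leaving out any single pig left 7 to 9. Among 22 insulin signalling and FOXO genes, 10 rose (against 33.9% of all genes) and 6 fell (against 29.4%) at 4 weeks (median 0.11). At 6 weeks 15 rose (against 22.7%) and 2 fell (against 18.4%), with a median of 0.45. In that list 7 were called in the same direction at both ages (against 15.1%) and 5 were opposite (against 11.4%). INSR, SESN1 and CDKN1B fell and then rose, and BCL6 and EIF4EBP1 did the reverse.

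ULK1, the kinase that starts autophagy (ENSSSCG00000009742, chromosome 14, 23423693 to 23448130), had a median of 55.1 CPM (39.3 to 103) in fed and 38.7 CPM (24.9 to 69.9) in fasted 4-week piglets, and of 34.4 CPM (25.9 to 45.6) in fed and 50.3 CPM (41.6 to 65.3) in fasted 6-week piglets. Fasting brought the 4-week pigs down and the 6-week pigs up by similar amounts, and the ranges overlapped at both ages. The response of ULK1 was -0.47 (SE 0.10) on the log2 scale at 4 weeks and 0.52 (SE 0.10) at 6 weeks, and the responses differed by 0.99 (SE 0.14, adjusted p = 2.5e-08). MAP1LC3B, the LC3 protein that coats autophagosomes, spanned 32.8 to 61.0 CPM in fed 4-week piglets (median 44.6), 23.2 to 38.1 CPM in fasted 4-week piglets (median 30.6), 23.4 to 43.1 CPM in fed 6-week piglets (median 27.9) and 29.2 to 40.7 CPM in fasted 6-week piglets (median 34.7). Every fasted pig was beyond the fed median, below it at 4 weeks and above it at 6 weeks. Fasted MAP1LC3B levels differed from fed ones by a log2 fold change of -0.52 (SE 0.07) at 4 weeks and 0.26 (SE 0.07) at 6 weeks, which lie 0.77 apart (SE 0.10, adjusted p = 3.1e-09).

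INSR, the insulin receptor and a FOXO target (ENSSSCG00000013566, chromosome 2, 71797209 to 71939923), had a median of 19.5 CPM (11.7 to 29.5) in fed and 9.76 CPM (4.25 to 20.2) in fasted 4-week piglets, and of 6.35 CPM (3.71 to 11.8) in fed and 14.9 CPM (5.6 to 29.8) in fasted 6-week piglets. At 4 weeks 15 of 16 fasted pigs were below the fed median, and at 6 weeks 15 of 16 were above it. Between the ages INSR differed in its log2 response by 2.23 (SE 0.26, adjusted p = 1.2e-10), from -0.96 (SE 0.18) at 4 weeks to 1.27 (SE 0.19) at 6 weeks. BCL6, a transcriptional repressor that is also a FOXO target, ran the other way at 6.29 to 12.3 CPM in fed 4-week piglets (median 7.69), 13.7 to 64.6 CPM in fasted 4-week piglets (median 39.5), 12.3 to 43.1 CPM in fed 6-week piglets (median 25.8) and 13.0 to 29.2 CPM in fasted 6-week piglets (median 17.8). The 4-week groups did not overlap. As log2 fold changes, BCL6 gave 2.24 (SE 0.15) at 4 weeks and -0.46 (SE 0.14) at 6 weeks, with -2.69 between them (SE 0.21, adjusted p = 1.2e-16). SESN1, a stress-induced inhibitor of mTORC1, changed by -1.05 and 0.67, CDKN1B, an inhibitor of cyclin-dependent kinases, by -0.29 and 0.49, and EIF4EBP1, a repressor of cap-dependent translation, by 0.33 and -0.33. TXNIP, a glucose-responsive gene that limits glucose uptake, rose at both ages (0.92 and 0.48), and its difference of -0.44 (SE 0.22, adjusted p = 0.091) was not called. It was called without fed 4-week pig 29 or without fasted 6-week pig 45 (-0.52 in each case, adjusted p = 0.041).

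APOM, a lipocalin that carries sphingosine-1-phosphate on HDL (ENSSSCG00000001411, chromosome 7, 23768974 to 23773324), had a median of 26.3 CPM (9.7 to 49.2) in fed and 5.82 CPM (2.09 to 21.8) in fasted 4-week piglets, and of 3.88 CPM (1.48 to 17.9) in fed and 12.6 CPM (5.6 to 43.0) in fasted 6-week piglets. All 16 fasted pigs passed the fed median at each age, and the ranges overlapped. In log2 units APOM moved by -1.91 (SE 0.32) at 4 weeks and by 1.46 (SE 0.32) at 6 weeks, a difference of 3.37 (SE 0.45, adjusted p = 5.1e-09). APOA1, the main protein of HDL, changed by -1.22 and 0.59 and was the single opposite member among 24 genes of fat absorption and chylomicron assembly, a share below the 11.4% of all genes. In that list 1 rose (against 33.9%) and 18 fell (against 29.4%) at 4 weeks. At 6 weeks 3 rose (against 22.7%) and 7 fell (against 18.4%). The response was higher at 6 weeks for 19 (against 27.1%). MYLIP, a ubiquitin ligase raised by liver X receptors, lay at 92.8 to 162 CPM in fed 4-week piglets (median 122), 20.0 to 135 CPM in fasted 4-week piglets (median 54.1), 14.6 to 57.7 CPM in fed 6-week piglets (median 34.9) and 30.3 to 147 CPM in fasted 6-week piglets (median 72.8). Suckling piglets were highest and fed weaned piglets lowest by median. For MYLIP the log2 fold change was -0.95 (SE 0.19) at 4 weeks and 1.23 (SE 0.20) at 6 weeks, a difference of 2.18 (SE 0.28, adjusted p = 1e-09).

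Other genes that fell and then rose, named for the size of their changes, were FBXL16, TH, MTR, RAB11FIP5, XK and SMIM1. FBXL16, an F-box protein (ENSSSCG00000008006, chromosome 3, 41071783 to 41083653), had a median of 44.6 CPM (15.6 to 78.6) in fed and 3.82 CPM (1.23 to 11.07) in fasted 4-week piglets, and of 2.58 CPM (1.65 to 6.63) in fed and 5.72 CPM (3.13 to 8.26) in fasted 6-week piglets. No fasted 4-week pig reached the lowest fed one. The response of FBXL16 was -3.36 (SE 0.23) on the log2 scale at 4 weeks and 0.95 (SE 0.22) at 6 weeks, and the responses differed by 4.31 (SE 0.31, adjusted p = 1.6e-17). TH, the rate-limiting enzyme of dopamine synthesis, lay at 66.3 to 232 CPM in fed 4-week piglets (median 133), 15.6 to 133 CPM in fasted 4-week piglets (median 70.4), 0.333 to 3.85 CPM in fed 6-week piglets (median 1.88) and 0.747 to 7.64 CPM in fasted 6-week piglets (median 4.97). It was far lower in both 6-week groups than in both 4-week groups. Fasted TH levels differed from fed ones by a log2 fold change of -1.07 (SE 0.24) at 4 weeks and 1.21 (SE 0.28) at 6 weeks, which lie 2.28 apart (SE 0.37, adjusted p = 4.2e-07). MTR, methionine synthase, had group medians of 30.8 CPM (fed) and 13.7 CPM (fasted) at 4 weeks and 4.09 CPM (fed) and 12.5 CPM (fasted) at 6 weeks and changed by -1.05 at 4 weeks (SE 0.28, adjusted p = 0.00097) and 1.48 at 6 weeks (SE 0.29, adjusted p = 5.4e-05). RAB11FIP5, an effector of recycling endosomes, had group medians of 38.2 CPM (fed) and 15.8 CPM (fasted) at 4 weeks and 3.94 CPM (fed) and 8.67 CPM (fasted) at 6 weeks and changed by -1.24 and 1.15 at 4 and 6 weeks, with a difference of 2.39 (SE 0.39, adjusted p = 4.3e-07). XK and SMIM1, membrane proteins best known from red blood cell groups, changed by -1.04 and 1.20 and by -1.02 and 1.12. Erythrocyte markers, of which 3 of 7 were measured, had medians of 26.9, 7.96, 2.74 and 2.77 CPM in fed 4-week, fasted 4-week, fed 6-week and fasted 6-week piglets, and their part was not tested.

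CYP1A1, a detoxifying enzyme induced through the aryl hydrocarbon receptor, had the largest positive difference of the named genes, and its fall at 4 weeks rested on 1 pig. It lay at 0 to 40.8 CPM in fed 4-week piglets (median 0.178), 0 to 0.743 CPM in fasted 4-week piglets (median 0.111), 9.53 to 1472 CPM in fed 6-week piglets (median 174) and 22.6 to 6179 CPM in fasted 6-week piglets (median 1533). The highest fed 4-week value, 40.8 CPM, was that of pig 15. Between the ages CYP1A1 differed in its log2 response by 6.66 (SE 1.21, adjusted p = 4.7e-06), from -3.93 (SE 1.00) at 4 weeks to 2.73 (SE 0.70) at 6 weeks. With neighbouring pig numbers as a replicate block the change at 4 weeks was -1.27 (adjusted p = 0.3). Without pig 15 the change at 4 weeks was -0.34 (adjusted p = 0.79) and the difference 3.07 (adjusted p = 0.025), and with limma-voom the difference was 3.36 (adjusted p = 0.16).

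Interferon-stimulated genes rose at 4 weeks and, in part, fell at 6 weeks. Of 40 measured, 39 rose and 0 fell at 4 weeks, with a median of 2.48, and 0 rose and 23 fell at 6 weeks, with a median of -0.53. The response was lower at 6 weeks for 39, by a median of -2.96, and all 23 that fell at 6 weeks had risen at 4 weeks, against 6.12% of all genes that rose and then fell. These genes encode antiviral proteins and sensors that interferons switch on. Leaving out single pigs gave 15 opposite members (without fed pig 44) to 29 (without fasted pig 45), and the median at 6 weeks stayed between -0.60 and -0.49. By pig, the median centred level of the list was -1.98 to -0.77 in fed 4-week piglets, -0.31 to 2.06 in fasted 4-week, -0.79 to 1.09 in fed 6-week and -0.98 to 0.95 in fasted 6-week piglets. Summed markers of macrophages and dendritic cells had medians of 804, 913, 726 and 728 CPM in the same order, and those of T cells 224, 325, 462 and 585 CPM. Plasma cell markers had summed medians of 105, 209, 346 and 357 CPM. Neutrophil markers, of which 2 of 8 were measured, had summed medians of 2.52, 31.4, 4.95 and 4.70 CPM, and both measured ones rose at 4 weeks. The part of these cell types in the interferon result was not tested.

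RSAD2, viperin, which blocks viral replication (ENSSSCG00000008648, chromosome 3, 128880853 to 128897809), had a median of 119 CPM (52.7 to 199.6) in fed and 1718 CPM (422 to 3985) in fasted 4-week piglets, and of 1050 CPM (239 to 3048) in fed and 227 CPM (115 to 1858) in fasted 6-week piglets. The 4-week groups did not overlap, and fed 6-week pigs were above every fed 4-week pig. At 6 weeks 15 of 16 fasted pigs were below the fed median, with pig 45 the highest at 1858 CPM. As log2 fold changes, RSAD2 gave 4.09 (SE 0.39) at 4 weeks and -1.53 (SE 0.35) at 6 weeks, with -5.62 between them (SE 0.52, adjusted p = 5.4e-14). OASL, an antiviral relative of the oligoadenylate synthetases, lay at 1.65 to 12.8 CPM in fed 4-week piglets (median 3.18), 100.2 to 920.5 CPM in fasted 4-week piglets (median 456), 8.39 to 576 CPM in fed 6-week piglets (median 277) and 10.6 to 562 CPM in fasted 6-week piglets (median 33.6). It was the gene with the largest negative difference, -7.73 (SE 0.69, adjusted p = 2.5e-14). Its log2 change was 6.57 at 4 weeks (SE 0.56, adjusted p = 5.3e-16) and -1.16 at 6 weeks (SE 0.44, adjusted p = 0.028), and the call at 6 weeks was lost without fed pig 44 (adjusted p = 0.052) and in a fit of the 6-week groups alone (-1.20, adjusted p = 0.061).

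MX2 and MX1, dynamin-like GTPases that trap viruses, and IFIT1, which binds viral RNA, had 4-week groups that did not overlap. MX2 had group medians of 24.1 CPM (fed) and 887 CPM (fasted) at 4 weeks and 435 CPM (fed) and 124 CPM (fasted) at 6 weeks. In log2 units MX2 moved by 5.03 (SE 0.40) at 4 weeks and by -0.98 (SE 0.34) at 6 weeks, a difference of -6.01 (SE 0.52, adjusted p = 9.3e-15). MX1 changed by 3.65 and -0.95 at 4 and 6 weeks, and IFIT1 by 4.04 and -0.95. IFIT2, another RNA-binding antiviral protein, had a median of 2.4 CPM (0.878 to 15.8) in fed and 202 CPM (8.34 to 842) in fasted 4-week piglets, and of 101 CPM (4.7 to 494) in fed and 20.0 CPM (3.29 to 341) in fasted 6-week piglets. Fed 4-week pigs reached at most 15.8 CPM, and the highest pig of each other group was far above them. For IFIT2 the log2 fold change was 5.67 (SE 0.66) at 4 weeks and -1.43 (SE 0.55) at 6 weeks, a difference of -7.10 (SE 0.85, adjusted p = 2.3e-10). At 6 weeks its change was -2.27 without fasted pig 45 and -1.09 (adjusted p = 0.099) without fed pig 48, and the reference table places IFIT1 and IFIT2 in an interval shared with LIPA. ISG15, UBA7, OAS1 and BST2 changed by 3.96, 5.01, 1.55 and 3.80 at 4 weeks and by -1.29, -1.10, -1.08 and -0.82 at 6 weeks. CXCL11, a chemokine that draws T cells, shared the rise at 4 weeks only, with group medians of 0.617 CPM (fed) and 138 CPM (fasted) at 4 weeks and 2.91 CPM (fed) and 1.45 CPM (fasted) at 6 weeks. Its log2 change was 6.94 at 4 weeks (SE 0.54, adjusted p = 2e-17) and -0.15 at 6 weeks (SE 0.44, adjusted p = 0.81). Of 13 genes for antigen presentation by class I, 10 rose at 4 weeks (against 33.9% of all genes) and 4 fell at 6 weeks (against 18.4%). TAPBP and PDIA3 were opposite, 2 of the 13, a share near the 11.4% of all genes. With DESeq2, limma-voom or no filter on low counts 1 was opposite, and with library size scaling 3 were.

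Genes of cell division, DNA replication and ribosome assembly rose at 4 weeks, and some of them fell at 6 weeks. Of 31 cell cycle genes 31 rose at 4 weeks (median 1.46) and 14 fell (against 18.4% of all genes) and 0 rose at 6 weeks (median -0.49). All 14 were opposite, and all 31 had the lower response at 6 weeks. Of 32 DNA replication genes 29 rose at 4 weeks (against 33.9% of all genes), while at 6 weeks 1 rose and 8 fell, a share near that of all genes, and 7 were opposite. Of 33 ribosome assembly genes 32 rose at 4 weeks (median 0.76), 16 fell at 6 weeks (median -0.31), and 15 were opposite. The count of opposite cell cycle genes rested on single pigs. It was 6 without fed pig 62, 7 without fed pig 58 and 8 without fasted pig 37, 45 or 47. Without fed pig 40 it was 9, and without fasted pig 51 it was 21. With the marker covariates 4 cell cycle, 3 replication and 4 ribosome assembly genes were opposite, and with library size scaling 6, 5 and 10.

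CDK1, the kinase that drives entry into mitosis (ENSSSCG00000010214, chromosome 14, 64233945 to 64255290), had a median of 6.33 CPM (3.88 to 9.41) in fed and 16.4 CPM (5.29 to 42.0) in fasted 4-week piglets, and of 24.2 CPM (14.5 to 35.3) in fed and 16.0 CPM (7.63 to 29.6) in fasted 6-week piglets. Suckling piglets were low throughout, and 15 of 16 fasted pigs were above the fed median at 4 weeks and 15 of 16 below it at 6 weeks. The response of CDK1 was 1.65 (SE 0.20) on the log2 scale at 4 weeks and -0.60 (SE 0.20) at 6 weeks, and the responses differed by -2.25 (SE 0.28, adjusted p = 7.3e-10), and with the covariates its call at 6 weeks was at the line (-0.50, adjusted p = 0.051). MYBL2, a transcription factor of the late cell cycle, changed by 1.94 at 4 weeks (SE 0.25, adjusted p = 8.9e-10) and -0.64 at 6 weeks (SE 0.24, adjusted p = 0.028), the second of which was lost without fed pig 62 (adjusted p = 0.061) and with the covariates (-0.52, adjusted p = 0.098). POLE, a replicative DNA polymerase, and MCM10, which helps open replication origins, had differences of -2.24 (SE 0.32, adjusted p = 3.7e-08) and -2.50 (SE 0.34, adjusted p = 1.2e-08), and the fall of POLE at 6 weeks was not called with the covariates (-0.53, adjusted p = 0.065). MCM10 had group medians of 3.63 CPM (fed) and 9.17 CPM (fasted) at 4 weeks and 14.2 CPM (fed) and 7.74 CPM (fasted) at 6 weeks, and 15 of 16 fasted 6-week pigs were below the fed median.

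NOP56, a core protein of the complexes that methylate ribosomal RNA, lay at 18.8 to 34.4 CPM in fed 4-week piglets (median 24.8), 29.6 to 99.99 CPM in fasted 4-week piglets (median 48.4), 29.3 to 67.3 CPM in fed 6-week piglets (median 44.7) and 21.0 to 47.3 CPM in fasted 6-week piglets (median 35.3). The fed groups stood apart by more than the fasted groups. Fasted NOP56 levels differed from fed ones by a log2 fold change of 1.05 (SE 0.14) at 4 weeks and -0.42 (SE 0.13) at 6 weeks, which lie -1.47 apart (SE 0.19, adjusted p = 2.1e-09). With the covariates its fall at 6 weeks was not called (-0.31, adjusted p = 0.07). UTP4, which processes the small ribosomal subunit, changed by 1.26 at 4 weeks (SE 0.17, adjusted p = 6.8e-09) and -0.46 at 6 weeks (SE 0.17, adjusted p = 0.028), and the latter was lost without fasted pig 37 (adjusted p = 0.051) and with the covariates (-0.33, adjusted p = 0.14). MYC, a driver of growth and ribosome genes, rose at 4 weeks by 1.82 (SE 0.19) and stood at 0.08 (SE 0.18) at 6 weeks, a difference of -1.74 (SE 0.26, adjusted p = 1e-07). Among crypt stem cell markers, 12 of 16 rose and 1 fell at 4 weeks, and at 6 weeks 0 rose and 1 fell. Their summed level ranged over 92.7 to 915, 354 to 3535, 868 to 5836 and 288 to 3549 CPM in fed 4-week, fasted 4-week, fed 6-week and fasted 6-week piglets. Their part in the cell cycle result was not tested. LGR5, the stem cell receptor itself, had group medians of 1.34 CPM (fed) and 2.45 CPM (fasted) at 4 weeks and 0.935 CPM (fed) and 0.847 CPM (fasted) at 6 weeks, and its difference of -0.69 (SE 0.51, adjusted p = 0.26) was not called.

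ATF4 targets and aminoacyl-tRNA synthetases also rose at 4 weeks and fell at 6 weeks more often than the reverse. Among 22 ATF4 stress response genes, which cells raise when amino acids or protein folding fail, 15 rose and 4 fell at 4 weeks (median 0.82). Of all genes 33.9% rose and 29.4% fell at that age. At 6 weeks 4 rose (against 22.7%) and 12 fell (against 18.4%), with a median of -0.54. In all, 9 rose and then fell (against 6.12% of all genes), and the same count was found without any single pig. Of 19 cytosolic aminoacyl-tRNA synthetases 15 rose at 4 weeks (against 33.9%) and 13 fell at 6 weeks (against 18.4%). In that list 9 were opposite (against 11.4%). Of 21 peptide and amino acid transporters 11 rose (against 33.9%) and 3 fell (against 29.4%) at 4 weeks (median 0.68). At 6 weeks 5 rose and 5 fell (median -0.08), shares near the 22.7% and 18.4% of all genes. The opposite ones were SLC7A5, SLC7A11, SLC1A4 and SLC1A5, 4 of 21 against 11.4% of all genes.

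ASNS, asparagine synthetase, a classic ATF4 target (ENSSSCG00000015340, chromosome 9, 77318341 to 77336290), had a median of 8.7 CPM (5.93 to 13.6) in fed and 30.6 CPM (11.2 to 82.5) in fasted 4-week piglets, and of 27.2 CPM (12.2 to 109) in fed and 12.3 CPM (8.6 to 25.5) in fasted 6-week piglets. All 16 fasted 4-week pigs were above the fed median and all 16 fasted 6-week pigs below it, and fed 4-week and fasted 6-week piglets were the low groups. Between the ages ASNS differed in its log2 response by -3.50 (SE 0.34, adjusted p = 2.8e-13), from 1.95 (SE 0.24) at 4 weeks to -1.55 (SE 0.24) at 6 weeks. SLC7A5, the light chain of a transporter for large neutral amino acids, lay at 5.76 to 16.4 CPM in fed 4-week piglets (median 11.4), 8.73 to 89.2 CPM in fasted 4-week piglets (median 28.9), 15.4 to 65.6 CPM in fed 6-week piglets (median 33.9) and 5.41 to 36.9 CPM in fasted 6-week piglets (median 16.5). In both comparisons 15 of 16 fasted pigs were beyond the fed median. As log2 fold changes, SLC7A5 gave 1.70 (SE 0.25) at 4 weeks and -0.99 (SE 0.25) at 6 weeks, with -2.69 between them (SE 0.35, adjusted p = 2.9e-09). SLC1A4, a carrier of alanine, serine and cysteine, changed by 1.23 at 4 weeks (SE 0.17, adjusted p = 3.1e-09) and -0.43 at 6 weeks (SE 0.16, adjusted p = 0.031), and the call at 6 weeks was lost without any of 7 pigs and with library size scaling (-0.46, adjusted p = 0.052). VLDLR, a lipoprotein receptor that ATF4 also raises, changed by 1.35 and -0.52, a difference of -1.87 (SE 0.22, adjusted p = 9.1e-11). SLC7A11, the cystine importer, and GDF15, a stress hormone that reduces appetite, changed by 1.51 and 1.25 at 4 weeks and by -1.66 and -1.33 at 6 weeks.

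GARS1, the glycyl-tRNA synthetase, had a median of 33.8 CPM (30.9 to 42.6) in fed and 59.2 CPM (45.8 to 93.2) in fasted 4-week piglets, and of 55.7 CPM (39.2 to 105) in fed and 45.6 CPM (39.2 to 56.7) in fasted 6-week piglets. The 4-week groups did not overlap. In log2 units GARS1 moved by 0.82 (SE 0.10) at 4 weeks and by -0.43 (SE 0.10) at 6 weeks, a difference of -1.26 (SE 0.14, adjusted p = 4.3e-11). YARS1, the tyrosyl-tRNA synthetase, changed by 0.99 and -0.37, a difference of -1.36 (SE 0.17, adjusted p = 3.8e-10). The other opposite synthetases (AARS1, CARS1, HARS1, LARS1, MARS1, TARS1 and VARS1) rose by 0.22 to 1.24 at 4 weeks and changed by -0.34 to -0.61 at 6 weeks.

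Cytosolic heat shock and chaperonin genes were opposite in more than 50% of the list, 13 of 23, against 11.4% of all genes. At 4 weeks 16 rose (against 33.9%) and 4 fell (against 29.4%), with a median of 0.50. At 6 weeks 0 rose (against 22.7%) and 19 fell (against 18.4%), with a median of -0.52. Proteasome subunits changed mainly at 6 weeks, where 27 of 28 fell (against 18.4% of all genes), with a median of -0.43. At 4 weeks 7 rose (against 33.9%) and 1 fell (against 29.4%), with a median of 0.07. All 7 that rose were opposite (against 11.4%). With library size scaling 18 of the 28 were opposite and with the marker covariates 4, the median at 4 weeks becoming 0.30 and -0.10. Endoplasmic reticulum folding genes fell at both ages more than they reversed. Of 29, 12 were down at 4 weeks (against 29.4% of all genes) and 25 at 6 weeks (against 18.4%). In that list 11 were called in the same direction at both ages (against 15.1%). The opposite ones were 2, a share below the 11.4% of all genes.

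HSPH1, a co-chaperone of HSP70 (ENSSSCG00000009334, chromosome 11, 7733874 to 7759528), lay at 27.1 to 55.9 CPM in fed 4-week piglets (median 34.2), 25.7 to 83.6 CPM in fasted 4-week piglets (median 52.4), 40.8 to 218 CPM in fed 6-week piglets (median 80.5) and 18.5 to 50.6 CPM in fasted 6-week piglets (median 28.7). Its fall at 6 weeks was the larger change and took in all 16 fasted pigs. For HSPH1 the log2 fold change was 0.49 (SE 0.15) at 4 weeks and -1.49 (SE 0.15) at 6 weeks, a difference of -1.99 (SE 0.22, adjusted p = 1.4e-11). CCT5, a subunit of the ring-shaped chaperonin that folds actin and tubulin, had group medians of 86.6 CPM (fed) and 134 CPM (fasted) at 4 weeks and 137 CPM (fed) and 117 CPM (fasted) at 6 weeks, with no overlap at 4 weeks. The response of CCT5 was 0.74 (SE 0.08) on the log2 scale at 4 weeks and -0.28 (SE 0.08) at 6 weeks, and the responses differed by -1.03 (SE 0.11, adjusted p = 2.6e-11). HSP90AA1, DNAJA1, HSPA8 and HSPD1 rose by 0.79, 0.63, 0.60 and 0.80 at 4 weeks and changed by -1.02, -0.97, -0.81 and -0.86 at 6 weeks. PSMA5 and PSMA2, subunits of the proteasome core, had differences of -1.89 (SE 0.20, adjusted p = 2.4e-12) and -1.43 (SE 0.15, adjusted p = 8.5e-12). PSMA5 had a median of 52.6 CPM (44.5 to 78.5) in fed and 134 CPM (53.3 to 195) in fasted 4-week piglets, and of 103 CPM (58.8 to 143) in fed and 60.4 CPM (37.8 to 103) in fasted 6-week piglets. Fed 4-week and fasted 6-week piglets were its low groups. HSPA5, the main chaperone of the endoplasmic reticulum, changed by -0.24 at 4 weeks (SE 0.15, adjusted p = 0.17) and -1.66 at 6 weeks (SE 0.16, adjusted p = 3.4e-12), and at 6 weeks its fed and fasted ranges did not meet.

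**Figure D4:**
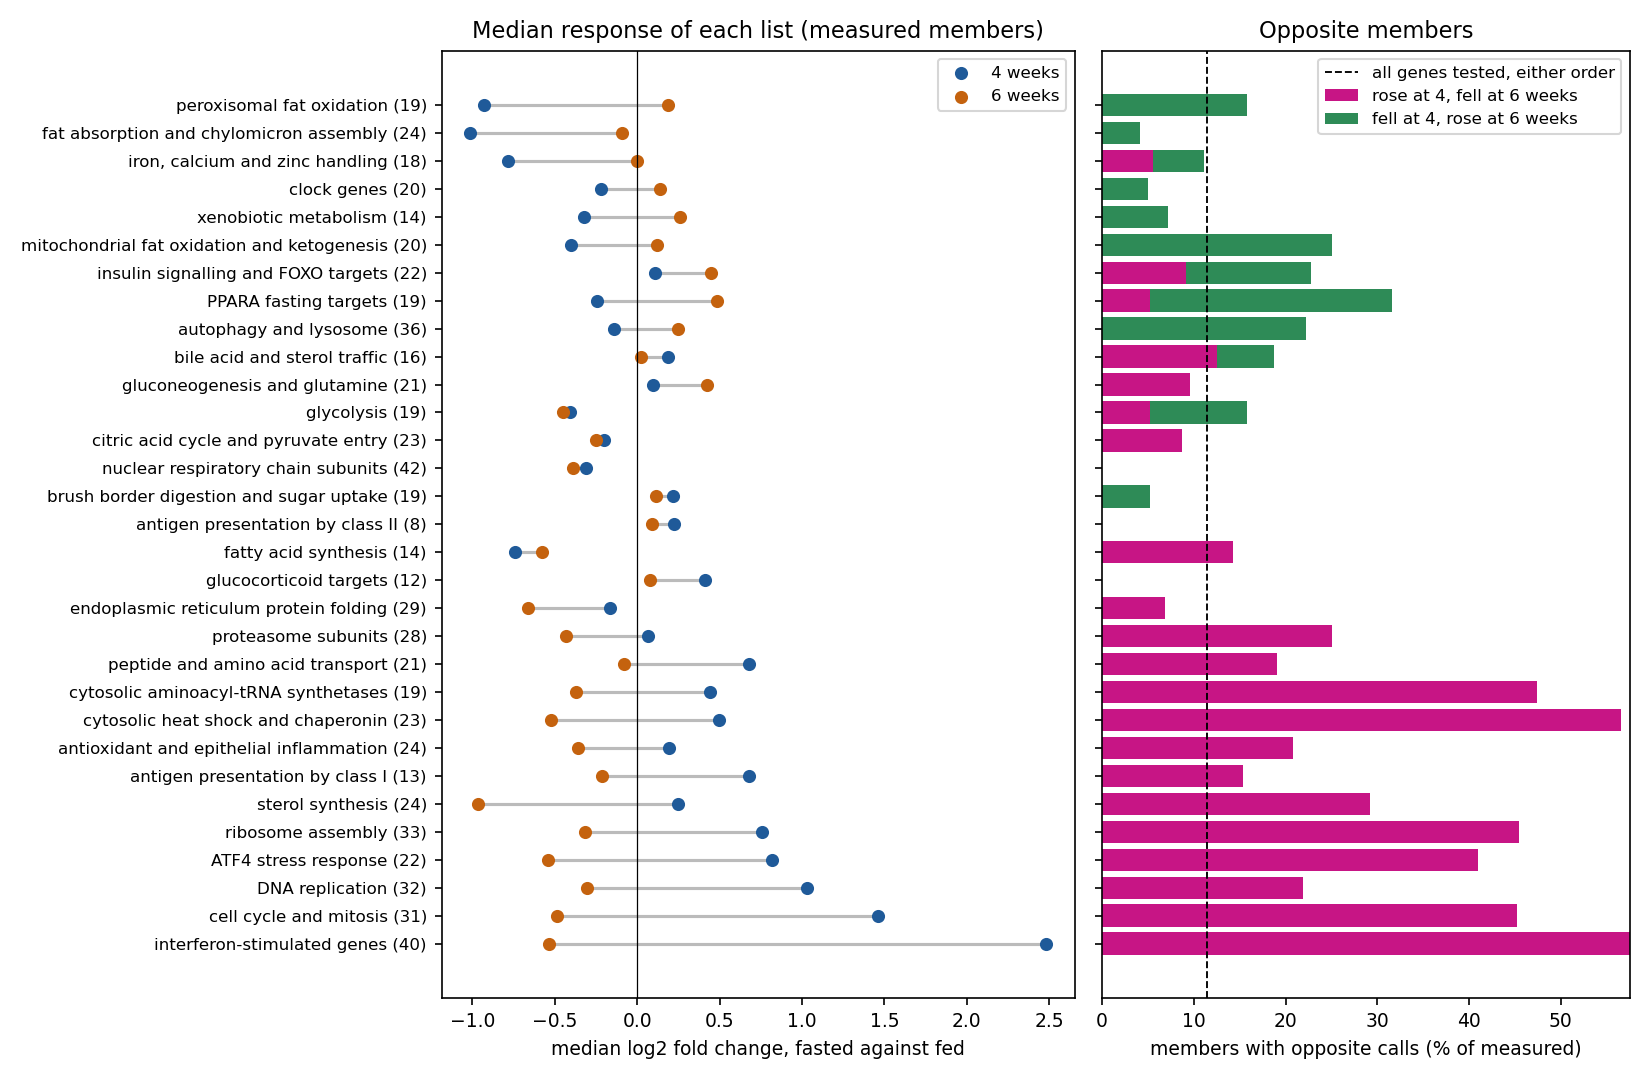
Median log2 fold change, fasted over fed, of the measured members (number in brackets) of 31 pathway lists at 4 weeks (blue) and 6 weeks (orange), and, at right, the percentage of members called in opposite directions, with a dashed line at the 11.4% of all genes tested. Interferon-stimulated and cell cycle genes have the widest spans, from 2.48 to -0.53 and from 1.46 to -0.49, and no respiratory chain gene was opposite.

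Sterol genes fell at 6 weeks, and at 4 weeks they rose at a share near that of all genes. Of 24 measured, 8 rose (against 33.9% of all genes) and 5 fell (against 29.4%) at 4 weeks (median 0.25). At 6 weeks 0 rose and 21 fell (against 18.4%), with a median of -0.96. The list had 7 members that rose and then fell (against 6.12%), SQLE, HSD17B7, FDFT1, IDI1 and EBP among them. With library size scaling 12 were opposite and with the marker covariates 2. HSD17B7, an enzyme of late cholesterol synthesis (ENSSSCG00000006337, chromosome 4, 87720747 to 87743037), had a median of 14.3 CPM (8.36 to 19.2) in fed and 21.5 CPM (16.8 to 34.4) in fasted 4-week piglets, and of 26.4 CPM (16.8 to 44.6) in fed and 17.8 CPM (9.39 to 25.3) in fasted 6-week piglets. In all 16 fasted pigs of each age the level was beyond the fed median, above it at 4 weeks and below it at 6 weeks, and the ranges overlapped at both ages. Fasted HSD17B7 levels differed from fed ones by a log2 fold change of 0.72 (SE 0.12) at 4 weeks and -0.62 (SE 0.12) at 6 weeks, which lie -1.34 apart (SE 0.17, adjusted p = 6.4e-10). Among the 14 measured fatty acid synthesis genes 4 rose and 9 fell at 4 weeks, 0 rose and 9 fell at 6 weeks, and 6 were called in the same direction at both ages. The opposite ones were 2 of the 14, against 11.4% of all genes: FASN, fatty acid synthase, and ACSS2, which activates acetate, at 0.48 and 0.69 at 4 weeks and -1.03 and -0.38 at 6 weeks.

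LPL, the lipase that frees fatty acids from circulating lipoproteins, came first among the genes that rose and then fell when ranked by the smaller of the 2 changes (ENSSSCG00000040631, chromosome 14, 4104761 to 4134964). It lay at 1.83 to 10.9 CPM in fed 4-week piglets (median 4.01), 1.5 to 62.9 CPM in fasted 4-week piglets (median 22.0), 15.8 to 139.9 CPM in fed 6-week piglets (median 67.6) and 6.47 to 45.8 CPM in fasted 6-week piglets (median 15.0). Suckling piglets were lowest and fed weaned piglets highest, and 15 of 16 fasted pigs at 4 weeks and 16 of 16 at 6 weeks were beyond the fed median. Between the ages LPL differed in its log2 response by -4.61 (SE 0.47, adjusted p = 2.3e-12), from 2.49 (SE 0.34) at 4 weeks to -2.11 (SE 0.33) at 6 weeks. The adipocyte list, which contains LPL, had 3 of 6 markers measured and summed medians of 10.2, 23.7, 68.8 and 16.1 CPM in fed 4-week, fasted 4-week, fed 6-week and fasted 6-week piglets. Outside the fed 4-week group most of that sum was LPL itself, so it is no separate measure of adipocytes. At 4 weeks 1 of the measured markers rose and 1 fell, and LPL was the only opposite one. The part of adipocytes in the LPL result was not tested. HK2, the inducible hexokinase that commits glucose to glycolysis, had a median of 5.84 CPM (4.52 to 7.37) in fed and 13.3 CPM (5.19 to 22.8) in fasted 4-week piglets, and of 22.4 CPM (13.4 to 52.4) in fed and 11.5 CPM (6.57 to 14.0) in fasted 6-week piglets. All 16 fasted 6-week pigs were below the fed median. As log2 fold changes, HK2 gave 1.21 (SE 0.15) at 4 weeks and -1.19 (SE 0.15) at 6 weeks, with -2.40 between them (SE 0.21, adjusted p = 2.4e-14). PFKFB4, which sets the level of the glycolytic activator fructose bisphosphate, went the other way and changed by -0.60 and 0.58, a difference of 1.18 (SE 0.17, adjusted p = 3.8e-08). The third opposite gene of the 19 in glycolysis was PKLR, the liver and red cell pyruvate kinase, at -0.65 and 0.40.

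SLC51B, a subunit of the basolateral bile acid exporter, lay at 86.9 to 223 CPM in fed 4-week piglets (median 127), 129 to 320.2 CPM in fasted 4-week piglets (median 215), 222 to 579.8 CPM in fed 6-week piglets (median 382) and 141 to 296 CPM in fasted 6-week piglets (median 238). In all 16 fasted pigs of each age the level was beyond the fed median. In log2 units SLC51B moved by 0.67 (SE 0.13) at 4 weeks and by -0.81 (SE 0.13) at 6 weeks, a difference of -1.48 (SE 0.18, adjusted p = 6.3e-10), and with the covariates the rise at 4 weeks was 0.27 (adjusted p = 0.18). Its partner SLC51A was also opposite, at 0.82 and -0.53.

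Of 24 measured redox and epithelial defence genes, 9 rose and 6 fell at 4 weeks, shares near the 33.9% and 29.4% of all genes. At 6 weeks 2 rose (against 22.7%) and 11 fell (against 18.4%). GPX2, TXNRD1, DUOX2, NOX1 and SOD2 rose and then fell, 5 of the 24 against 6.12% of all genes. GPX2, the glutathione peroxidase of the gut epithelium (ENSSSCG00000002279, chromosome 7, 89007636 to 89011620), had a median of 3.64 CPM (0.517 to 9.95) in fed and 8.1 CPM (0.407 to 32.9) in fasted 4-week piglets, and of 36.4 CPM (13.6 to 78.5) in fed and 6.17 CPM (0.572 to 21.9) in fasted 6-week piglets. At 4 weeks 9 of 16 fasted pigs were above the fed median, and at 6 weeks all 16 were below it. For GPX2 the log2 fold change was 1.41 (SE 0.42) at 4 weeks and -2.43 (SE 0.42) at 6 weeks, a difference of -3.84 (SE 0.60, adjusted p = 1.9e-07). With limma-voom the rise at 4 weeks was not called (0.90, adjusted p = 0.12). TXNRD1, which keeps thioredoxin reduced, changed by 0.80 and -0.51, and DUOX2 and NOX1, oxidases that release hydrogen peroxide and superoxide, by 1.26 and 1.92 at 4 weeks and -1.45 and -1.91 at 6 weeks. Goblet cell markers AGR2, SPDEF and MUC2 rose by 0.43, 0.47 and 0.36 and then changed by -1.17, -0.44 and -0.43, 3 of the 6 measured markers of that cell type. Of all 6, 1 fell at 4 weeks and 4 fell at 6 weeks. Their summed level had medians of 1405, 1156, 2950 and 2290 CPM in fed 4-week, fasted 4-week, fed 6-week and fasted 6-week piglets.

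PNP, which breaks down purine nucleosides for salvage (ENSSSCG00000002135, chromosome 7, 78426838 to 78447029), had a median of 24.6 CPM (8.89 to 77.6) in fed and 61.9 CPM (12.4 to 168) in fasted 4-week piglets, and of 138 CPM (64.4 to 266) in fed and 31.3 CPM (20.8 to 51.6) in fasted 6-week piglets. The 6-week groups did not overlap. The response of PNP was 1.49 (SE 0.24) on the log2 scale at 4 weeks and -2.11 (SE 0.25) at 6 weeks, and the responses differed by -3.60 (SE 0.35, adjusted p = 2.5e-13). AREG, a ligand of the EGF receptor that promotes epithelial repair, lay at 2.67 to 11.9 CPM in fed 4-week piglets (median 7.44), 4.61 to 90.0 CPM in fasted 4-week piglets (median 30.0), 15.7 to 119 CPM in fed 6-week piglets (median 47.7) and 7.48 to 45.7 CPM in fasted 6-week piglets (median 14.7). Fed weaned piglets were highest and suckling piglets lowest. Fasted AREG levels differed from fed ones by a log2 fold change of 2.25 (SE 0.29) at 4 weeks and -1.58 (SE 0.28) at 6 weeks, which lie -3.83 apart (SE 0.40, adjusted p = 3.2e-12). ADAMTS15, a secreted protease, changed by 1.90 and -1.65, a difference of -3.55 (SE 0.39, adjusted p = 1.6e-11). AP4B1, a subunit of a vesicle coat adaptor, and BCL2L15, a member of the BCL2 family, are neighbours on chromosome 4, where they span 106656632 to 106668252 and 106673555 to 106683103. They changed by 1.82 and -1.46 and by 1.99 and -1.84, with differences of -3.28 (SE 0.36, adjusted p = 1.6e-11) and -3.83 (SE 0.47, adjusted p = 3.7e-10).

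Some groups did not reverse. Of 42 nuclear respiratory chain subunits, 38 fell at 4 weeks and 35 at 6 weeks, 0 rose at either age, and the medians were -0.31 and -0.39. In this list 33 fell at both ages, 0 were opposite, and 3 had a higher and 5 a lower response at 6 weeks. Of 19 brush border digestion and sugar uptake genes 1 was opposite, ACE, a peptidase of the brush border, at -0.73 and 0.73. SI, sucrase-isomaltase, SLC5A1, the sodium-glucose transporter, and SLC15A1, the peptide transporter, had differences of 0.52 (SE 0.26, adjusted p = 0.091), -0.35 (SE 0.23, adjusted p = 0.2) and -0.13 (SE 0.21, adjusted p = 0.62), none of them called. The first was called with limma-voom (0.69, adjusted p = 0.048) and with neighbouring pig numbers as a replicate block (0.65, adjusted p = 0.04), and the second with library size scaling (-0.52, adjusted p = 0.025).

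Other large differences came from a change at 4 weeks alone. DGAT2, which completes triglyceride synthesis, lay at 867 to 1787 CPM in fed 4-week piglets (median 1393), 13.8 to 244 CPM in fasted 4-week piglets (median 73.4), 22.7 to 223 CPM in fed 6-week piglets (median 76.0) and 50.4 to 179 CPM in fasted 6-week piglets (median 98.6). The 4-week groups were far apart, and the fasted 4-week and both 6-week groups overlapped. Between the ages DGAT2 differed in its log2 response by 3.93 (SE 0.37, adjusted p = 2e-13), from -3.97 (SE 0.29) at 4 weeks to -0.04 (SE 0.26) at 6 weeks. HOMER2, a synaptic scaffold protein, and GATM, the first enzyme of creatine synthesis, changed at 4 weeks by -4.83 (SE 0.51) and -3.48 (SE 0.25), with values at 6 weeks of 0.06 (SE 0.47) and 0.27 (SE 0.24). NUPR1, a stress-induced chromatin protein, and FKBP5, a chaperone raised by glucocorticoids, rose at 4 weeks by 5.99 (SE 0.47) and 1.31 (SE 0.12), with values at 6 weeks of -0.57 (SE 0.39) and 0.04 (SE 0.12). APOA4, an apolipoprotein of chylomicrons, fell at both ages, with log2 fold changes of -2.82 and -1.46, with groups that did not overlap at either age, as at 8 genes of all tested (0.0569%).

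Markers of tissue layers beneath the epithelium moved in the same direction at both ages. Of 11 smooth muscle markers 10 fell at 4 weeks and 7 at 6 weeks, and 0 rose. Their summed level ranged over 236 to 888, 49.0 to 359.6, 188 to 572 and 68.1 to 306 CPM in fed 4-week, fasted 4-week, fed 6-week and fasted 6-week piglets. ACTG2, the smooth muscle actin, changed by -2.94 and -1.53, a difference of 1.42 (SE 0.39, adjusted p = 0.0015). Of 12 measured fibroblast and stroma markers 8 fell at 4 weeks and 9 at 6 weeks. No measured marker of either list was at 0 in over 50% of a group's pigs, and no member was opposite. With the smooth muscle and the B cell markers as covariates, but not the stroma markers, 492 genes fell and then rose and 539 rose and then fell. Of these 1031, 862 were among the 1606.

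Pigs of a group differed among themselves at these genes. Over the 746 genes, the median centred log2 level of a pig was 0.22 to 0.59 in fed 4-week piglets, -0.65 to 0.37 in fasted 4-week, -0.56 to 0.06 in fed 6-week and -0.24 to 0.30 in fasted 6-week piglets. Over the 860 it was -0.61 to -0.23, -0.33 to 0.80, -0.15 to 0.69 and -0.59 to 0.22. The genes were chosen for their group means, so the order of the groups is fixed by that choice, but the spread within groups is not. Fed 6-week pig 46 lay with the fasted pigs of its age: it had the highest level of its group at 392 of the 746 genes and the lowest at 396 of the 860. Fasted 6-week pig 51 lay toward the fed pigs, being lowest at 265 of the 746 and highest at 311 of the 860. Among fasted 4-week piglets, pig 1 was lowest at 377 of the 746 and highest at 361 of the 860, and pig 32, near the fed pigs, was highest at 301 and lowest at 265. Without pig 46 the 2 sets held 837 and 941 genes, without pig 51 795 and 955, without pig 1 684 and 896, and without pig 32 859 and 924.

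**Figure D5:**
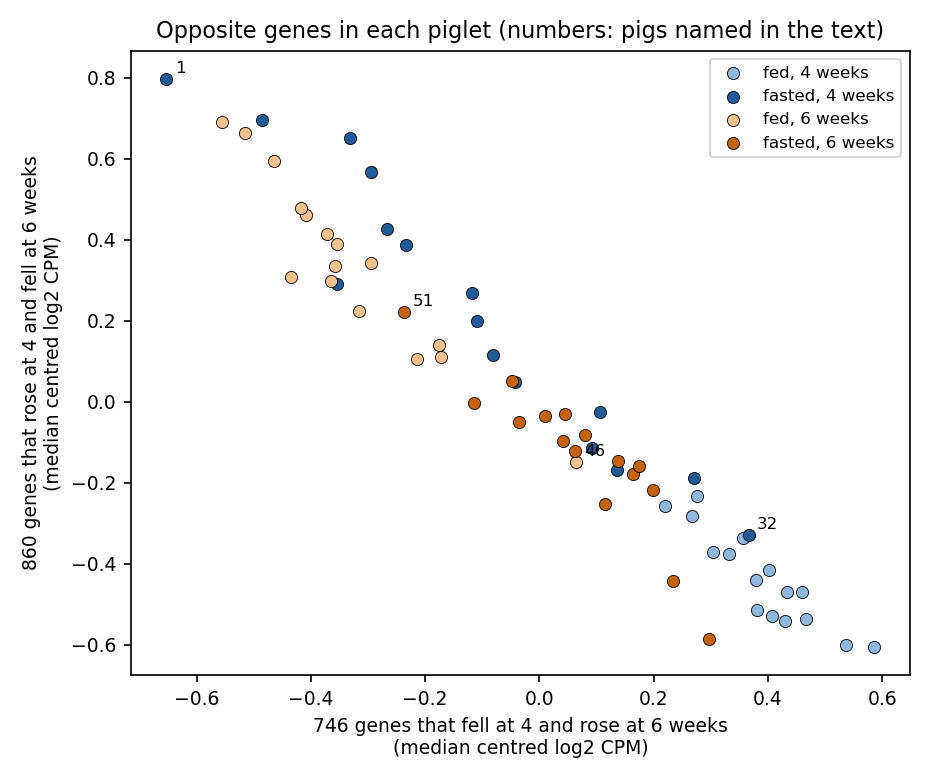
Median centred log2 CPM per pig over the 746 genes that fell and then rose (x axis) and the 860 that rose and then fell (y axis), one dot per piglet, coloured by group. Fed 4-week pigs gather at lower right and most fed 6-week pigs at upper left, fasted 4-week pigs run from pig 1 to pig 32 across the whole diagonal, and fed 6-week pig 46 lies among the fasted 6-week pigs.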

How the data were processed

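Each library was mid-jejunum mucosa of 1 piglet, sequenced on a BGISEQ-500 per the labels. The deposited files held raw counts per gene, which the authors made with STAR and HTSeq. The submitters' processing notes name these tools and the build Sscrofa11.1. Versions, annotation release and strand setting are not given in the sources used here. The 5 HTSeq summary rows were dropped (no feature 4.84 to 8.89% of reads, ambiguous 5.5 to 7.64%, not unique 2.73 to 4.07%). Of 31908 IDs, 25772 had a count and 14062 passed filterByExpr; 15029 IDs had a symbol, carrying 86% of counts. One edgeR 4.0.16 model in R 4.3.3 held all 64 pigs with a mean per group (TMM factors 0.758 to 1.383, robust quasi-likelihood fit, common biological coefficient of variation 0.289). Benjamini-Hochberg adjustment ran over 14062 genes within a comparison, and the standard error was the absolute log2 fold change over the square root of F. Gene list medians and counts use measured members and carry no test. Sources gave no litter, day or batch.

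The genes and gene lists were chosen with earlier results of these data known. Named genes carried a symbol and averaged a log2 CPM of 1 or more, immunoglobulin, T cell receptor, mitochondrially encoded and ribosomal protein genes apart. They were the 10 opposite genes of each order ranked by the smaller of the 2 changes, the 5 largest positive and negative differences, the 2 opposite members with the smallest p in each pathway list with at least 3, and 20 genes named whatever their result, some of which are not reported here. Other members of lists were named after their values were seen. Locations come from a RefSeq table on Sscrofa11.1, matched by symbol. Alternatives were DESeq2 1.42.0 and its size factors, library size scaling, no filter, limma-voom (limma 3.58.1), a test against 1.5-fold, marker covariates, fits of 2 groups, an adjusted p under 0.01, and fits without fasted 4-week pigs 1, 28 and 32. Fits without each single pig and with neighbouring pig numbers as a block were added after the data were seen. Tested on simulated data of 14062 genes with 50 changed in opposite directions at each fold, the method called 8, 27, 41 and 48 as opposite at 1.25, 1.5, 2 and 3-fold at each age, and 0 of 13862 unchanged genes.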

Additional observations from a re-analysis of the deposited data

Results flagged for a closer look

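For 68 of the 73 named genes the fasting response at 6 weeks differed from that at 4 weeks by the test of the difference itself, the edgeR quasi-likelihood test with Benjamini-Hochberg adjustment over 14062 genes. Numbers in brackets are the log2 response at 6 weeks minus the log2 response at 4 weeks. Fat oxidation and fuel choice gave positive differences for ACAD11 (3.00), ACOT12 (2.29), ACAA2 (2.18), ETFDH (0.95), EHHADH (1.53), CROT (1.01), RETSAT (2.64), CPT1A (1.12), PDK2 (2.69), PDK4 (3.09), PFKFB4 (1.18) and PCK1 (3.41). Lipid transport and storage did so for APOM (3.37), APOA4 (1.36), DGAT2 (3.93) and MYLIP (2.18). Autophagy and insulin signalling did so for ULK1 (0.99), MAP1LC3B (0.77) and INSR (2.23). The other positive differences were those of CYP1A1 (6.66), HOMER2 (4.89), FBXL16 (4.31), GATM (3.75), MTR (2.53), RAB11FIP5 (2.39), TH (2.28), XK (2.24), SMIM1 (2.14) and ACTG2 (1.42).

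Negative differences included those of the interferon-related genes OASL (-7.73), IFIT2 (-7.10), CXCL11 (-7.08), MX2 (-6.01), RSAD2 (-5.62), IFIT1 (-4.99) and MX1 (-4.61). Growth genes followed with MYBL2 (-2.58), MCM10 (-2.50), CDK1 (-2.25), POLE (-2.24), UTP4 (-1.72), NOP56 (-1.47) and MYC (-1.74). Amino acid genes were ASNS (-3.50), SLC7A5 (-2.69), VLDLR (-1.87), SLC1A4 (-1.65), YARS1 (-1.36) and GARS1 (-1.26). Protein quality control genes were HSPH1 (-1.99), PSMA5 (-1.89), PSMA2 (-1.43), HSPA5 (-1.42) and CCT5 (-1.03). Sterol, lipid, sugar and bile acid genes were LPL (-4.61), HK2 (-2.40), SLC51B (-1.48) and HSD17B7 (-1.34). The rest were NUPR1 (-6.56), GPX2 (-3.84), BCL2L15 (-3.83), AREG (-3.83), PNP (-3.60), ADAMTS15 (-3.55), AP4B1 (-3.28), BCL6 (-2.69), TXNRD1 (-1.31) and FKBP5 (-1.28). The difference of CYP1A1 was called with every alternative run but limma-voom.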

How the results depend on the processing

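Each pair of neighbouring odd and even pig numbers holds 1 fed and 1 fasted pig of one age, and the sources used here do not say whether they were litter or pen mates. Deviations from the group means correlated over 0.1 across genes in 11 of 32 such pairs, and 5 fed pigs correlated best with their neighbour. The median correlation was 0.065, above the -0.017 for other fed and fasted pigs of one age. These values do not settle whether neighbours were paired, and the reported fit has no pairing because the sources give none. A replicate block of these pairs, chosen after the data were seen, gave 828 and 893 opposite genes, of which 1499 were among the 1606 reported. Among the named genes it changed the calls of CYP1A1 and LGR5 at 4 weeks and of the difference for SI. Opposite genes were shared widely between the reported fit and DESeq2 (1561 of its 1702), its size factors (1542 of 1641) and limma-voom (1498 of 1655). Library size scaling gave 2518 genes lower at 4 weeks, 2213 with a higher response at 6 weeks, 2719 lower in fed 6-week than fed 4-week piglets, and 389 that fell and then rose. The marker covariates gave 492 and 539 opposite genes, an adjusted p under 0.01 gave 404 and 449 and 1724 lower at 6 weeks, and a 1.5-fold minimum at both ages gave 138 and 269. The test against 1.5-fold gave 1564 higher and 1218 lower at 4 weeks, 172 and 163 at 6 weeks, 1111 and 1562 for the difference, 1523 and 1278 between fed groups, 320 and 582 between fasted groups, and 11 and 33 opposite genes. The stricter p and both 1.5-fold settings ask by construction for more than the reported call, and for the others the cause was not tested. Leaving out single pigs gave 667 to 859 and 742 to 955 opposite genes, 3700 to 3932 higher and 3651 to 3800 lower for the difference, 4589 to 4772 and 4047 to 4234 at 4 weeks, 2843 to 3316 and 2372 to 2862 at 6 weeks, 4399 to 4715 and 4341 to 4615 between fed groups, and 2533 to 2944 and 2882 to 3359 between fasted groups. Among the 73 named genes no difference between the responses changed sign under the alternatives that were run. Opposite changes of 1.25-fold were mostly missed in simulated data, where few genes changed. In the data 63.4% of genes were called at 4 weeks and 41.1% at 6 weeks, which makes the adjusted p threshold less strict. The simulation therefore cannot tell how many small reversals went uncalled here.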

Other observations

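Opposite calls among markers of plasma cells and of macrophages and dendritic cells were few in number, but their share was not below the 11.4% of all genes. Of 7 plasma cell markers 6 rose at 4 weeks and 1 fell at 6 weeks, the latter being PRDM1, the regulator of antibody-secreting cells, at 0.93 and -0.52. Of 12 measured markers of macrophages and dendritic cells 6 rose at 4 weeks and 2 fell at 6 weeks, CD14 (2.02 and -0.58) and CD68 (1.36 and -0.40), both opposite. T cell and cytotoxic lymphocyte markers rose at both ages where called. At 4 weeks 7 of 11 and 9 of 12 rose, against 33.9% of all genes. At 6 weeks 3 of 11 and 3 of 12 rose, near the 22.7% of all genes. Enteroendocrine markers fell for 8 of 12 at 4 weeks and rose for 3 and fell for 1 at 6 weeks, none of them opposite.

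A few opposite genes belonged to lists with at most 2 opposite members. HMOX1, which degrades heme, changed by -2.38 and 0.76, and TFRC, the transferrin receptor, by 0.73 and -0.52. TEF, a clock-controlled transcription factor, changed by -0.90 and 0.66. ARG2, the mitochondrial arginase, changed by 1.76 and -0.50, and the mitochondrial dehydrogenases IDH2 and MDH2 by 0.55 and 0.30 at 4 weeks and by -0.52 and -0.33 at 6 weeks. These genes were chosen after their values were seen.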
